A study of Drosophila melanogaster with 2 samples.

Results

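The genes described here are the small nucleolar RNA (snoRNA) genes of Drosophila melanogaster and the genes that carry them, set against the binding sites of the zinc finger protein ATbp. Every gene of the Ensembl annotation whose name starts with snoRNA: was taken, which gave 257 of the 18164 genes on the 6 chromosomes with peaks. The host of a snoRNA was the gene on the same strand that contains it, the shortest one where 2 did. The 257 snoRNA genes fell into 236 with a host and 21 without one, and the 236 lay in 82 host genes.

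The samples were 2 biological replicates, which form 1 group: transgenic whole embryos, male and female pooled, aged 0 to 14 h, that stably express ATbp with green fluorescent protein (GFP) at its C-terminal end. Chromatin sheared to 200 to 800 bp was precipitated with an antibody against GFP, so a peak reports the tagged protein in whatever cells of the whole embryo hold it. No untagged embryos were analysed here, and no group stands against these 2 samples. Binding was read from 4 peak lists on the build dm6. They were a list of 5921 peaks that passed an irreproducible discovery rate (IDR) threshold over both replicates, a relaxed list of 30000 peaks from the pooled reads, and a relaxed list of 30000 for each replicate. A relaxed list is deliberately permissive and holds weak peaks. A summit is the position of highest signal in a peak, and a rank of 1 is the strongest peak of its list by the authors' signal value. A peak of the IDR list has the same rank in the pooled list. The read depth of the libraries is unknown.

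SnoRNAs guide the chemical modification of ribosomal RNA. C/D box snoRNAs direct ribose methylation and H/ACA box snoRNAs direct the change of uridine to pseudouridine. In flies most snoRNAs have no promoter of their own: they sit in introns, are transcribed with the host by RNA polymerase II, and are trimmed out of the excised intron. Many hosts encode ribosomal proteins, and others are noncoding genes (Uhg genes) whose spliced exons appear to serve chiefly as a carrier. A few snoRNAs, among them U3, which acts in the first cuts of the ribosomal RNA precursor, are transcribed from promoters of their own.

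By name, 111 of the 257 were C/D box, 115 were H/ACA box, and 31 carried a name that gives neither. The 82 hosts were 28 ribosomal protein genes with 71 snoRNAs, 44 other protein-coding genes with 110, and 10 noncoding genes with 55. Of the 236 hosted snoRNAs, 214 lay wholly in introns, 18 within exons and 4 across the edge of an exon. They lay between 0 and 50634 bp from the nearest host transcription start site (TSS), with a median of 1422 bp.

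The next sequences show what lies beside the ribosomal protein promoters below, 2 snoRNAs and 8 promoters, read from the RefSeq copy of the dm6 assembly, 5′ to 3′ on the strand of the gene. The first is a C/D box snoRNA in an intron of RpS12 (3L:13023580-13023652, plus strand), with the letters of its C box and D box in capitals. The second is an H/ACA box snoRNA in an intron of RpS29 (3R:9778398-9778537, plus strand), with its ACA box in capitals.
snoRNA:Me28S-A774b: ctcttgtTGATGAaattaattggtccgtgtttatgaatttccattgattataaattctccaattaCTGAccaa
snoRNA:Psi18S-1275: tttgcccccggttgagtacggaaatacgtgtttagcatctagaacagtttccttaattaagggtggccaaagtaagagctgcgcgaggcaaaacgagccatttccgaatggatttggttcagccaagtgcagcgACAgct

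The promoters run over 80 bases, 60 before the TSS and 20 from it on. A lone capital is the base of the TSS, and a run of 5 capitals is centred on the IDR summit. The first 5 promoters carry an IDR summit, which lies 17 bp upstream of the TSS in RpL14, 11 bp upstream in RpS4, 34 bp upstream in RpL22, 40 bp upstream in RpS5a and 7 bp upstream in RpS12. RpL5, RpL15 and RpS6 carry no IDR summit within 500 bp and are shown for comparison. A promoter with an IDR summit is printed at the TSS nearest that summit, and one without at the canonical TSS of the annotation. The bound and unbound promoters are thus aligned by different rules. The RpL5 summit of replicate 2, at 22536661, lay 11 bp from another RpL5 TSS, outside the printed stretch.
RpL14 (3L:8600946-8601025, plus strand): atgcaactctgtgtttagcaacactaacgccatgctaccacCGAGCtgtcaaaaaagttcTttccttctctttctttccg
RpS4 (3L:13041741-13041820, plus strand): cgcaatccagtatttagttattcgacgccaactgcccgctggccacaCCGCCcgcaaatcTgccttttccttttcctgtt
RpL22 (X:765111-765190, minus strand): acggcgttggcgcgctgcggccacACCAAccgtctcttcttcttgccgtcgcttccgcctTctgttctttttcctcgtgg
RpS5a (X:17148245-17148324, minus strand): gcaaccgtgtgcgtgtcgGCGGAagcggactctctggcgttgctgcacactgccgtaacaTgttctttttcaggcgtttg
RpS12 (3L:13023292-13023371, plus strand): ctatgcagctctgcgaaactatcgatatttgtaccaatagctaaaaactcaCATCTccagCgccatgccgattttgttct
RpL5 (2L:22536865-22536944, minus strand): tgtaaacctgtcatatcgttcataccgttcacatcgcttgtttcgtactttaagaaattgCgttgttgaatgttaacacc
RpL15 (3L:27267196-27267275, plus strand): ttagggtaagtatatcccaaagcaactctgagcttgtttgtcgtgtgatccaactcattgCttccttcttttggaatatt
RpS6 (X:7901312-7901391, minus strand): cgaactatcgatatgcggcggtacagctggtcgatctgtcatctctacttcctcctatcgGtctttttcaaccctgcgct

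Few snoRNAs had an IDR summit close by. An IDR summit lay within 500 bp of 12 of the 257 snoRNA genes (4.67%, Wilson 95% interval 2.69 to 7.98%). The 12 shared 10 summits. Of the 8 with a host, 7 had a summit that also lay within 500 bp of a host TSS. In the relaxed lists this held for 13 of 26 in the pooled list, 20 of 42 in replicate 1 and 13 of 20 in replicate 2. Of the genome cut into tiles of 100 bp, 4.57% lay as close to an IDR summit, so the snoRNA share was near the background. For other small RNA genes the same share was 27 of 290 tRNA genes (9.31%), 12 of 260 microRNA precursor genes (4.62%) and 3 of 32 small nuclear RNA genes (9.38%). By box, the counts were 4 of 111 C/D, 6 of 115 H/ACA and 2 of 31 with neither name. Here and below, intervals cover counting error only, and snoRNAs of 1 host are not independent, since they share its promoter.

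The hosts gave a different picture. An IDR summit lay within 500 bp of a TSS in 38 of 82 hosts (46.3%, 36.0 to 57.1%), against 13.1% of all genes and 14.9% of protein-coding genes. Ribosomal protein hosts held 23 of these in 28 genes (82.1%, 64.4 to 92.1%). Other protein-coding hosts held 14 in 44 (31.8%, 19.9993 to 46.6%). Noncoding hosts held 1 in 10 (10%, 1.79 to 40.4%), against 7.67% of all noncoding RNA genes. Counted by snoRNA, 100 of 236 had a host with a promoter summit: 64 of 71 in ribosomal protein hosts, 29 of 110 in other protein-coding hosts and 7 of 55 in noncoding hosts.

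**Figure D1:**
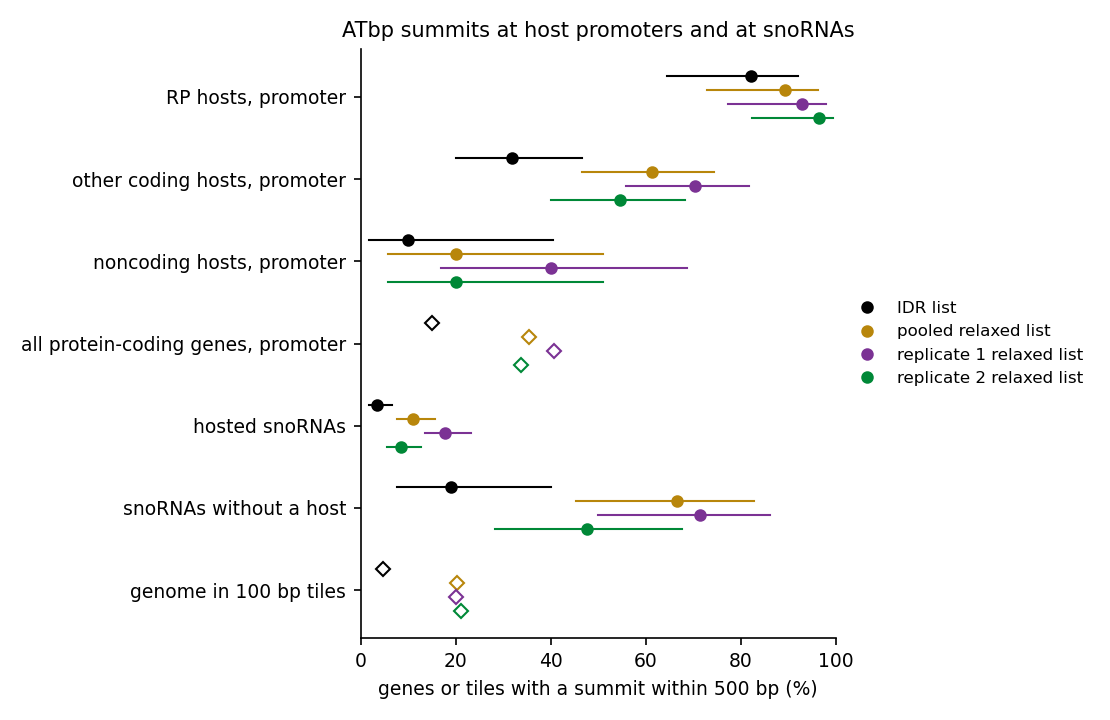
Share of genes with an ATbp summit within 500 bp of a TSS (upper 4 rows) or of the snoRNA or tile itself (lower 3 rows), in percent, for each of the 4 peak lists. Filled points are hosts or snoRNAs with Wilson 95% intervals, open diamonds the background; ribosomal protein (RP) hosts lie at 82.1% in the IDR list, hosted snoRNAs at 3.39%.

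The relaxed lists kept the order of the host classes by share. Within 500 bp of a TSS, 25 of 28 ribosomal protein hosts had a summit in the pooled list, 26 in replicate 1 and 27 in replicate 2. Among other protein-coding hosts the counts were 27, 31 and 24 of 44. Among noncoding hosts they were 2, 4 and 2 of 10. The background was 33.4% of all genes and 35.4% of protein-coding genes in the pooled list, 37.8% and 40.6% in replicate 1, and 31.7% and 33.7% in replicate 2. At the snoRNAs themselves a summit lay within 500 bp of 40 of 257 in the pooled list (15.6%), 57 in replicate 1 (22.2%) and 30 in replicate 2 (11.7%). The tiles gave 20.3%, 20.1% and 21%, so the snoRNA share was close to the background in replicate 1 and below it in the other 2 lists.

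The snoRNAs with an IDR summit were mostly those closest to the host TSS. Of 35 snoRNAs up to 500 bp from a host TSS, 7 had an IDR summit within 500 bp (20%, 10.04 to 35.9%). Of 48 at over 500 and up to 1000 bp there were 0, which allows a share of up to 7.41% by the Wilson interval. Of 73 at over 1000 and up to 2000 bp there were 0, which allows up to 4.999%. Of 80 at over 2000 bp there was 1 (Wilson interval 0.221 to 6.75%). In all 7 of the close snoRNAs the summit was that of the host promoter. At this distance the windows around the snoRNA and the TSS largely overlap, so the 2 cannot be counted apart. The 19 close snoRNAs whose host had a promoter summit include 12 with no IDR summit within 500 bp of the snoRNA itself.

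The closest class also had the highest share in each replicate list, where the counts by class were 17, 10, 6 and 9 of the same 35, 48, 73 and 80 in replicate 1 and 13, 0, 1 and 6 in replicate 2. Beyond 1000 bp, 15 of 153 snoRNAs (9.80%) had a summit in replicate 1 and 7 of 153 (4.58%) in replicate 2, both below the share of tiles.

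The nearest IDR summit of a snoRNA in a bound host was usually the host's own. This held for 91 of the 100 snoRNAs in hosts with a promoter summit: 63 of 64 in ribosomal protein hosts, 21 of 29 in other protein-coding hosts and all 7 in the noncoding host Uhg4. Ribosomal protein hosts had a median length of 1766 bp and other protein-coding hosts one of 5859 bp, and the part of gene length in these counts was not tested. Across all hosted snoRNAs the nearest IDR summit lay between 142 and 2915126 bp away, with a median of 4012 bp.

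**Figure D2:**
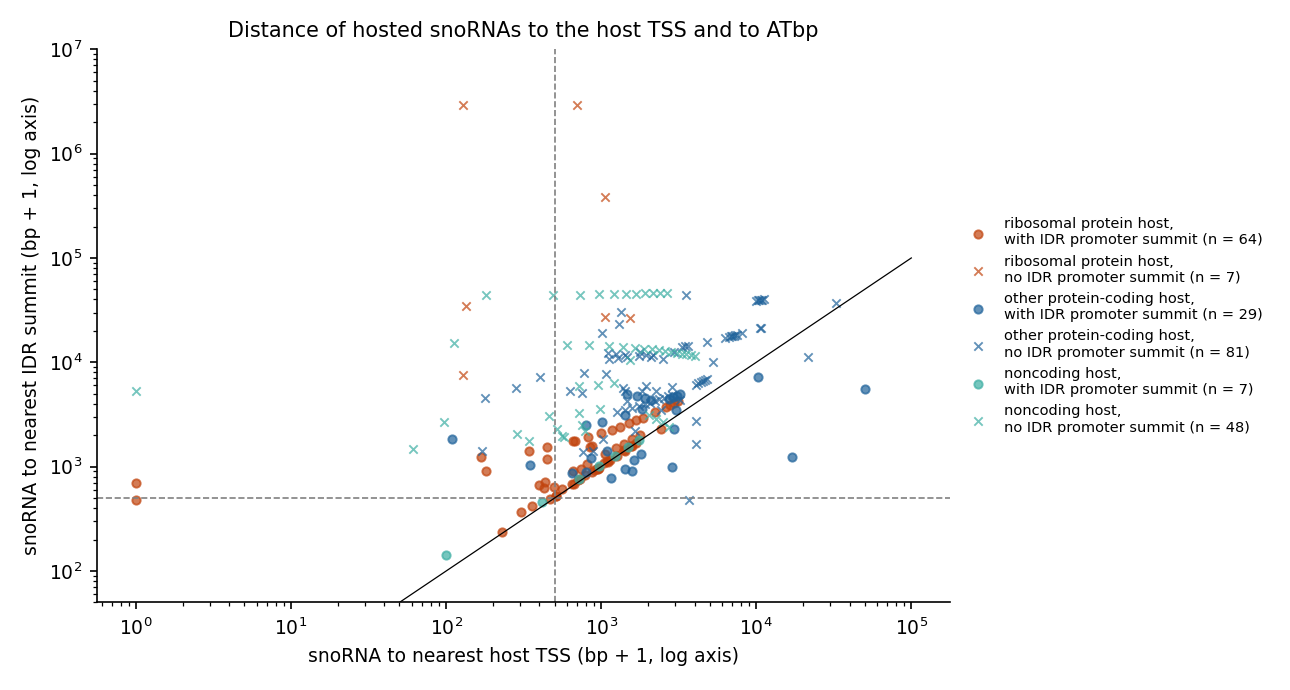
Each of the 236 hosted snoRNAs by its distance to the nearest host TSS (x) and to the nearest IDR summit (y), both in bp plus 1 on log axes, with colour for the class of host and circles for hosts with an IDR promoter summit. Dashed lines mark 500 bp and the solid line equal distances; most circles of ribosomal protein hosts follow the line, and crosses, of hosts with none, lie above 500 bp apart from 1, the snoRNA in tn.

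The 8 hosted snoRNAs with an IDR summit came from 7 hosts, and are named here without the prefix snoRNA. Psi28S-2949 and Or-aca5, both H/ACA and both in Uhg4 on 2R, lay 142 and 455 bp from the summit at that promoter (rank 303). Me28S-A774b, whose sequence is given above, lay 235 bp from the RpS12 promoter summit (rank 1667). Psi18S-1275 lay 364 bp from that of RpS29 (rank 5312). Psi28S-1232 lay 423 bp from that of RpL17 (rank 939), Or-CD11a 478 bp from that of RpL28 (rank 701) and U49:66Da 484 bp from that of RpL14 (rank 339). None of these 7 held the summit inside the snoRNA. RpL28 has several annotated TSSs, 1 of them within Or-CD11a, and the summit lay 59 bp upstream of another. At Me28S-A774b replicate 1 also had a weaker summit, 12 bp from the snoRNA (rank 6240).

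The exception was abba-a, in an intron of tn on 2R, a gene for a TRIM-family protein of muscle. Its summit, at 18994223, lay 473 bp from the snoRNA and 3186 bp from the nearest tn TSS. The summit ranked 3288 in the IDR list. The only summit within 500 bp of abba-a had rank 4863 in replicate 1 and rank 14348 in replicate 2, so replicate 2 had a weak peak there. No list had a summit within 500 bp of a tn TSS.

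Summits also lay in the bodies of hosts, away from their TSSs. More than 500 bp from any host TSS, the hosts held 38 IDR summits, all in other protein-coding hosts. Of these, 1 lay within 500 bp of a snoRNA (2.63%), and 8.91% of such sequence in other protein-coding hosts did. In that class the relaxed lists gave 10 of 176 (5.68%) in the pooled list, 14 of 178 (7.87%) in replicate 1 and 9 of 192 (4.69%) in replicate 2, so these shares were near that of the sequence or below it. Ribosomal protein hosts have little such sequence, 37632 bp, too little for a count of 0 IDR summits to be informative. It held 2 summits in the pooled list, both within 500 bp of a snoRNA. Replicate 1 had 4 there, of which 3 were, and replicate 2 had 0. Of that sequence 77.0% lies within 500 bp of a snoRNA, so these counts are too few to tell apart from its share. Of the 38, 8 lay in tou, a chromatin remodelling gene, 6 in Dys, the dystrophin gene, and 4 each in Rbfox1, an RNA splicing regulator, drn, hts, an adducin gene, and kis, a chromatin remodeller. The strongest, rank 160, lay in Dys, 15737 bp from a TSS and 1249 bp from Me18S-A1374.

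Among ribosomal protein hosts, the summit sat on the start site. Where a host had several IDR summits within 500 bp of a TSS, the strongest was taken. In the 23 with an IDR summit the median distance from the TSS was 11 bp, with a range of 0 to 195 bp. Of the 23, 20 were within 50 bp, 18 lay upstream, 4 downstream and 1 at the TSS. In the 14 other protein-coding hosts with a summit the median distance was 217 bp, with a range of 35 to 479 bp, and 1 lay within 50 bp. A weaker IDR summit of lola, not counted here, lay 47 bp from a TSS. Of 2002 bound protein-coding genes that are neither hosts nor ribosomal, 10.6% had the summit within 50 bp, with a median distance of 168 bp.

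**Figure D3:**
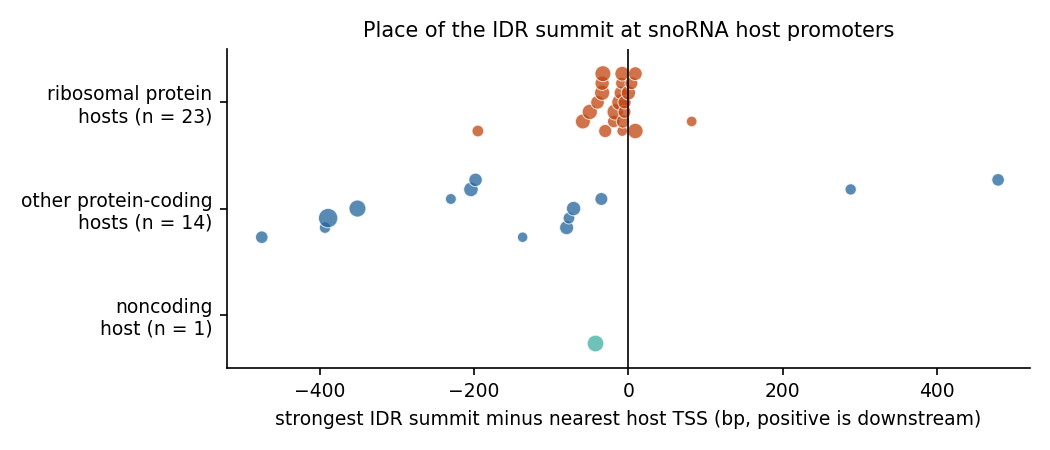
Distance of the strongest IDR summit from the nearest host TSS in bp, negative upstream, for the 38 hosts that have one, by class; larger points have a higher authors' signal, and the vertical spread within a row only separates points. Ribosomal protein hosts lie within 50 bp of the TSS in 20 of 23 cases, other protein-coding hosts in 1 of 14.

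Ribosomal protein genes with and without a snoRNA were close in summit distance and rank, but not in share. Of the 60 that host none, 39 had an IDR promoter summit (65.0%, 52.4 to 75.8%). The 28 hosts had a higher share, 82.1%, with an overlapping interval. Their share was also higher in the pooled list (89.3% against 76.7%), replicate 1 (92.9% against 85.0%) and replicate 2 (96.4% against 78.3%). This difference was not tested. In the 39 without a snoRNA the median distance was 23 bp, and 33 of 39 lay within 50 bp. Median ranks were 1363 for the hosts and 1280 for the others. Split by subunit, 12 of 15 large-subunit hosts and 11 of 13 small-subunit hosts had a summit.

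The strongest ribosomal protein host was RpL14, whose summit had rank 339 in the IDR list, 368 in replicate 1 and 345 in replicate 2. That of RpS4 had rank 365, with ranks 419 and 348 in the replicates. RpL13A (IDR rank 420), RpL30 (523), RpL11 (589), RpL22 (613), RpL28 (701) and RpS16 (830) followed. All of these encode proteins of the cytosolic ribosome, and their IDR summits lay between 59 bp upstream and 9 bp downstream of the TSS. Both replicates ranked the summit of each in their first 1000 peaks, with the exception of RpL28 in replicate 1.

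The other ribosomal protein hosts with an IDR summit included RpL28, RpL17, RpL4, RpL27A, RpS5a, RpS12, RpS3A, RpL3, sta, RpS7, RpL7A, RpL36A, RpS20, RpS29 and RpS9. The weakest were RpS29 (rank 5312) and RpS9 (rank 5318), close to the end of the list. The 5 without one included RpL15, RpL5, RpL10Ab and RpS6. Of these, RpL10Ab and RpS6 had summits in the pooled list at ranks 6230 and 7285, below all 5921 IDR peaks, and in both replicates. RpL15 and RpL5 had a summit in replicate 2 alone (ranks 6860 and 6753). All 28 therefore had a promoter summit in at least 1 list. The nearest IDR summit was 2914427 bp from RpL15 and 388092 bp from RpL5. Even in the pooled list the nearest lay 1253227 and 216462 bp away. How well reads could be placed around these genes was not tested.

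For RpL28, replicate 2 had the summit at rank 705, 65 bp from the TSS. Replicate 1 had its nearest summit 286 bp away, at rank 17912. RpS20 differed in the same direction, with rank 9621 in replicate 1 and rank 1729 in replicate 2.

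**Figure D4:**
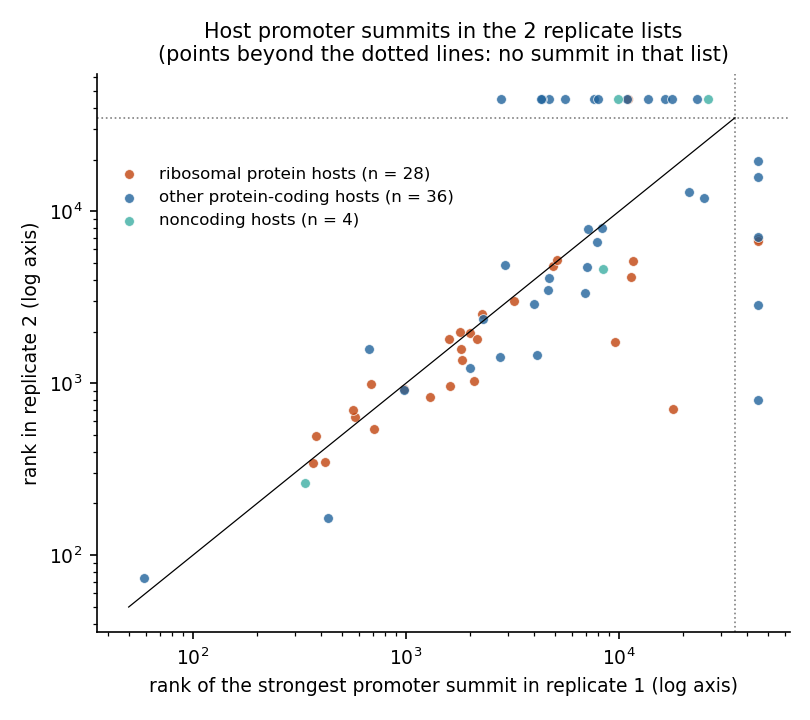
Rank of the strongest summit within 500 bp of a host TSS in the relaxed lists of replicate 1 (x) and replicate 2 (y), log axes with the strongest at the lower left, for the 68 hosts with a summit in either list; points right of or above the dotted lines have no summit in that list. The line marks equal ranks in the 2 lists of 30000 peaks; RpL28, at rank 17912 in replicate 1 and rank 705 in replicate 2, lies far below it.

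Among other protein-coding hosts the strongest was Stt3A on X, a catalytic subunit gene of the enzyme that attaches N-glycans. Its summit ranked 62 in the IDR list, 59 in replicate 1 and 74 in replicate 2. It lay 389 bp upstream of the Stt3A TSS, and a TSS of the neighbouring gene bves lies within 500 bp of that TSS. Msp300, a nesprin gene, had the next (rank 257, 351 bp upstream of a TSS), but its 1 snoRNA lies 50634 bp from any Msp300 TSS. hts (rank 888) and drn (rank 935) followed. Irbp, the gene of a Ku DNA end-binding subunit, ranked 1078, and its summit was in replicate 2 (rank 802) and absent from the replicate 1 list. The remaining hosts with a summit were Dys, the elongation factor gene eEF1alpha1, the poly(A)-binding protein gene pAbp, the transcription factor gene lola, the clock gene tim, kis, the splicing factor gene SC35, gcl and kra. The gcl summit was in replicate 1 (rank 4666), and the replicate 2 list had none within 500 bp of the TSS. That of kra was the weakest of the 38 hosts (IDR rank 5785), with summits at ranks 6900 and 3355 in replicates 1 and 2.

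The share of other protein-coding hosts was also split by 2 properties of the genes. A gene with more TSSs has more windows in which a summit can lie, so its share is higher by construction. With 1, 2 and 3 or more annotated TSSs, 3 of 18, 2 of 11 and 9 of 15 of these hosts had an IDR summit. The shares of protein-coding genes that are neither hosts nor ribosomal were 9.70%, 22.0% and 41.5%. For the hosts, replicate 1 gave 10 of 18, 10 of 11 and 11 of 15, and replicate 2 gave 8, 5 and 11. Of other protein-coding hosts with a TSS of another gene within 500 bp, 11 of 24 had an IDR summit (45.8%), against 21.9% of the same comparison genes. Of those with no such neighbour, 3 of 20 had one (15.0%), against 10.6%. For ribosomal protein hosts the counts were 11 of 12 with a neighbour and 12 of 16 without (75.0%). Whether TSS number or a shared promoter accounts for the share of other hosts was not tested.

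Noncoding hosts had the smallest share, and Uhg4 stood apart from the others. Uhg4, on 2R with 7 snoRNAs, had a summit 43 bp upstream of its TSS at rank 303, and at ranks 335 and 263 in replicates 1 and 2. Uhg8 came next, with no IDR summit and ranks of 8365 and 4598 in the 2 replicates. Uhg2 and Uhg5 had a weak summit in replicate 1 only (ranks 9918 and 26063). Uhg1, Uhg3, Uhg7 and the other 3 noncoding hosts had a promoter summit in no list.

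Of the 5 hosts with the most snoRNAs, 1 had an IDR promoter summit and none had an IDR summit within 500 bp of a snoRNA. Arpc2, a subunit gene of the actin-nucleating Arp2/3 complex, holds 17, all H/ACA, and none of the 4 lists had a summit within 500 bp of any of them. Its promoter had no IDR summit, but weak ones in both replicates (ranks 7058 and 4768). Uhg1 holds 16, all C/D, and dom, the gene of a Tip60-complex ATPase, holds 15; no list had a summit near any of these. The dom promoter had a summit in replicate 2 alone (rank 2856). RpS5a holds 14, all H/ACA. It had an IDR summit at the promoter (rank 1363), and of its snoRNAs 4 had a summit in replicate 1 and 0 in the other 3 lists. These 4 shared 1 weak summit, at rank 23417. Uhg5 holds 11, of which 3 had a summit, in replicate 1 alone.

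**Figure D5:**
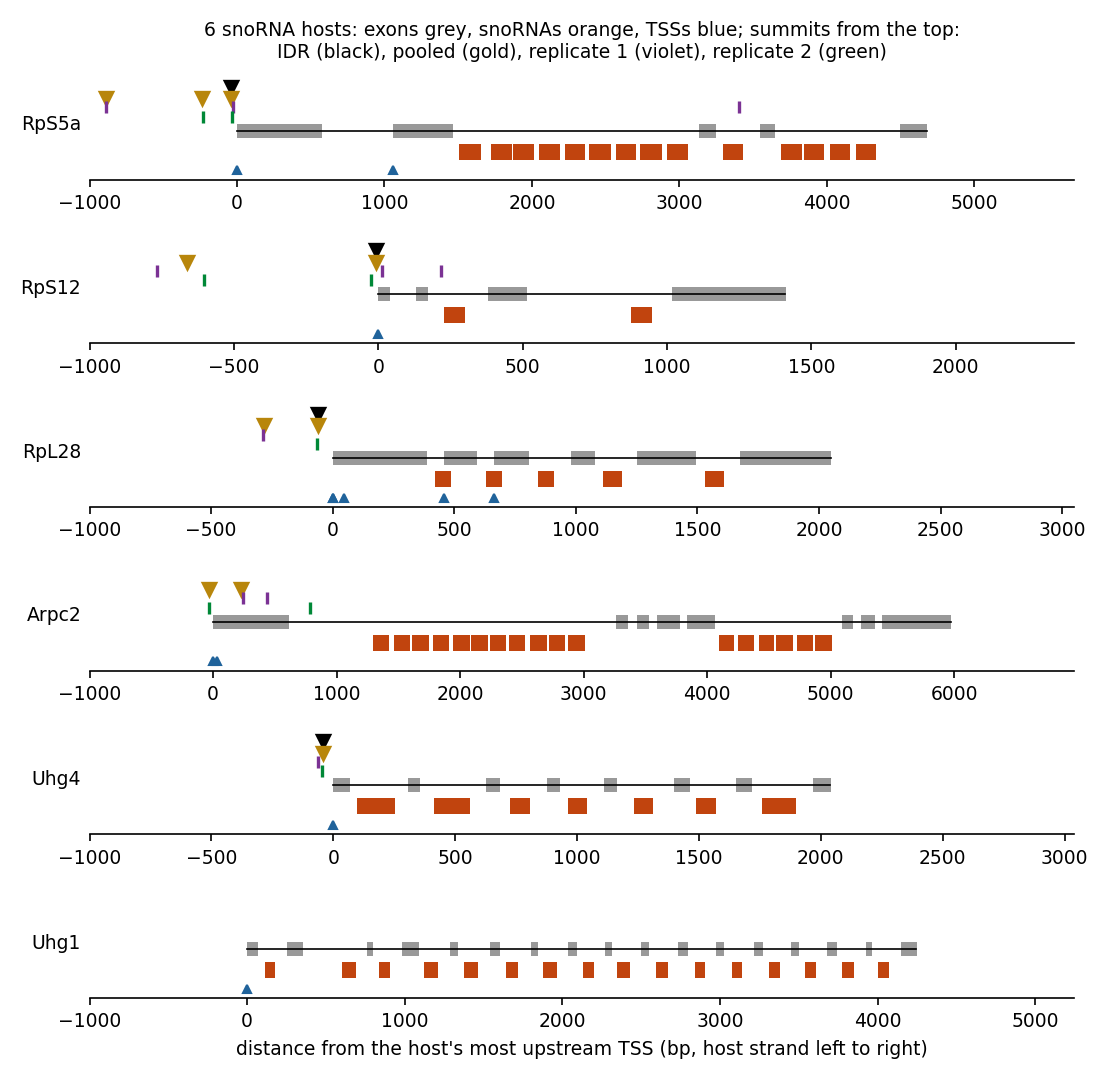
Maps of 6 hosts in bp from the most upstream TSS, host strand left to right, with exons, snoRNAs, TSSs and the summits of the 4 lists. In RpS5a, RpS12, RpL28 and Uhg4 the IDR summit lies at the promoter and none lies among the snoRNAs; Arpc2 and Uhg1 have no IDR summit in the stretch shown.

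The 21 snoRNAs without a host had summits at a higher share than the hosted ones. Of these, 10 lay antisense inside a gene and 11 in no gene. An IDR summit lay within 500 bp of 4 of 21 (19.05%, 7.67 to 40.0%), against 8 of 236 hosted ones (3.39%, 1.73 to 6.55%). In the relaxed lists the counts were 14 of 21 in the pooled list, 15 in replicate 1 and 10 in replicate 2, against 26, 42 and 20 of 236. The tiles lay at 4.57% in the IDR list and at 20.3%, 20.1% and 21% in the relaxed lists. Some of these snoRNAs lie together and share a summit: the nearest summits of the 14 in the pooled list were 11 different ones, those of the 15 in replicate 1 were 12 and those of the 10 in replicate 2 were 9. The 4 rest on 3 summits, all on 2R. Or-ACA6 and Or-CD13, antisense inside egr, a tumour necrosis factor gene, share a summit at rank 1727, 465 and 463 bp away. The gene snoRNA:185 lay 66 bp from a summit at rank 2793, which both replicates had within 160 bp of it (ranks 2857 and 2038). Psi18S-176 held the summit within itself, at 23840019 and rank 2523; replicate 1 had it at rank 2153 and replicate 2 had none within 500 bp.

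The X-linked U3 gene and Psi28S-3342, also without hosts, held a weak summit inside the gene in the pooled list and in both replicates. For U3:9B the replicate ranks were 9756 and 8333, and for Psi28S-3342 they were 11939 and 10991, all outside the IDR threshold. The other 2 U3 genes, U3:54Aa and U3:54Ab on 2R, had no summit in any list. Reads from copies of 1 snoRNA can be hard to place, so values at the 3 U3 genes are uncertain, and how the authors treated reads that map to several places is not stated in any source used here.

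Taking the 5921 strongest peaks of each, a promoter summit was found in 21 and 25 of 28 ribosomal protein hosts, in 17 and 16 of 44 other protein-coding hosts and in 1 and 2 of 10 noncoding hosts, in replicates 1 and 2. The background for protein-coding genes was 15.5% in replicate 1 and 15% in replicate 2. Both replicates had it in 21 ribosomal protein hosts, and replicate 2 alone in 4: RpL28, RpS20, RpL10Ab and RpS6. Among other protein-coding hosts both had it in 12, replicate 1 alone in 5 and replicate 2 alone in 4. Over all hosts, those with replicate 1 alone included nop5 (rank 2801) and tou (rank 4282). The strongest with replicate 2 alone were RpL28 (rank 705), Irbp (rank 802) and RpS20 (rank 1729). For the 25 ribosomal protein hosts with a summit in both relaxed lists, the 2 summits lay a median of 18 bp apart, against 33 bp in 19 other protein-coding hosts.

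The DNA under the summits also differed between the classes. In 101 bp around the IDR summit the A+T content had a median of 50.5% in the 23 ribosomal protein hosts (40.6 to 70.3%) and of 70.3% in the 14 other protein-coding hosts (48.5 to 88.1%). It was 51.5% in Uhg4. All 5921 IDR summits had a median of 65.3%. Of the ribosomal protein hosts 21 of 23 lay below that median, and of the other protein-coding hosts 5 of 14.

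Short sequences were counted from 250 bases before to 50 after the canonical TSS, on both strands. TATCGATA, the DNA replication-related element (DRE), was in 16 of 82 hosts (19.5%), against 8.94% of protein-coding genes. TATCGATA was in 7 of 38 hosts with an IDR promoter summit (18.4%) and in 9 of 44 without (20.5%). RpS12, with a summit, and RpS6, without an IDR summit, both hold it in the sequence above. ATCGAT, which lies inside TATCGATA, was in 26 of 82 hosts (31.7%), against 22.7%. GTCACAC, part of the core promoter element Motif 1, was in 15 hosts (18.3%), against 9.39%, and ACAGTG in 19 (23.2%), against 13.9%. By host class, TATCGATA was in 8 of 28 ribosomal protein hosts (28.6%), 8 of 44 other protein-coding hosts (18.2%) and 0 of 10 noncoding hosts. Of the 60 ribosomal protein genes without a snoRNA, 18 had TATCGATA, so its share was not higher in the ribosomal protein hosts. In the same 60 genes, ATCGAT was in 26 (43.3%), GTCACAC in 9 (15.0%) and ACAGTG in 11 (18.3%).

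CTTT at the TSS, starting from 1 base before to 1 base after it on the strand of the gene, is part of the TCT initiator of ribosomal protein genes. At the canonical TSS it was in 4 of 28 ribosomal protein hosts (14.3%), against 1.28% of protein-coding genes. The counts were 2 of 10 in noncoding hosts and 0 of 44 in other protein-coding hosts. Of the latter, drn had it at another TSS, the one nearest its IDR summit. Of ribosomal protein genes without a snoRNA, 2 of 60 had it (3.33%). All 4 ribosomal protein hosts that had it had an IDR summit, but so had 23 of all 28, so this count is near that share. RpL14 is an example above. These counts depend on TSS annotation to the base, and a match is letters in a window, not a bound site.

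Genes for the proteins that assemble, modify with and release snoRNAs had an IDR share whose interval takes in that of protein-coding genes. Of 18 listed, 4 had an IDR summit within 500 bp of a TSS (22.2%, 9.001 to 45.2%), against 14.9% of protein-coding genes. These were pont, an ATPase of snoRNP assembly (rank 483, 131 bp from the TSS), NHP2, an H/ACA core protein (rank 1211, 188 bp), Nopp140, a snoRNP chaperone (rank 4614, 104 bp) and ldbr, which opens intron lariats (rank 5651, 78 bp). The core protein genes Fib and nop5 of C/D particles and Nop60B of H/ACA particles had no IDR promoter summit, and all 3 are themselves snoRNA hosts. Fib had weak summits in both replicates (ranks 7182 and 7849), nop5 had a summit in replicate 1 alone, and Nop60B had none. In the relaxed lists 7 of the 18 had a summit in the pooled list (38.9%), 10 in replicate 1 (55.6%) and 7 in replicate 2 (38.9%), against 35.4%, 40.6% and 33.7% of protein-coding genes, so the pooled and replicate 2 shares were near the background.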

How the data were processed

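ATbp-GFP ChIP-seq peaks came from 2 replicates of whole embryos. Per the README text deposited with the samples, the authors made a relaxed list for each replicate and for the pooled alignments, each also using a file named as input of their control-normalized tracks, and derived the IDR list from these. The signal of each peak is the authors' own deposited value, with no scaling given, and was used only within 1 list; replicates were set side by side by rank, in lists of equal length. No source used here names the aligner, peak caller, IDR threshold or read depth.

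Summits on dm6 were set against Ensembl annotation release 115 (BDGP 6.54), without transposable elements, with 1-based coordinates. Sequences came from the RefSeq copy of the release. A gene had a promoter summit if one lay within 500 bp of any of its TSSs. Members and lists were chosen with earlier results of these data known. Shares carry Wilson 95% intervals; no test was run, since there is 1 group. Motif counts used the canonical TSS, and the most upstream one for 1 protein-coding gene with none. Counting was tested on simulated summits. Python 3.11.15, NumPy 2.4.6, pandas 2.3.3, SciPy 1.17.1 and Matplotlib 3.10.9 were used.

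Named genes were the 12 hosts with the strongest IDR promoter summits, all ribosomal protein hosts with one, the 5 hosts with most snoRNAs, snoRNAs with an IDR summit that has no host TSS beside it, snoRNAs without a host that have one, snoRNP genes with one, and the 3 strongest hosts found in either replicate alone. Some genes that the rule names are not reported here. Other hosts and snoRNAs were named after their values were seen. Alternatives are given in the closing section.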

Additional observations from a re-analysis of the deposited data

How the results depend on the processing

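Of 66 alternative values, 47 stayed within 1.5 times the reported count. At 250 bp, 4 snoRNAs had an IDR summit, 0 of those over 1000 bp from a host TSS, and in 2 of 2 hosted ones the summit was also at a host TSS. At 1000 bp these were 41, 5 and 34 of 37. A wider window takes in more by construction. In the 2960 strongest IDR peaks, 9 other protein-coding hosts and 0 snoRNAs over 1000 bp from a host TSS had a summit. In the pooled relaxed list, 40 snoRNAs, 27 other protein-coding hosts, 2 noncoding hosts and 9 distant snoRNAs had one, and in 13 of 26 hosted snoRNAs it was also at a host TSS. That list is longer by construction. With hosts that share a promoter left out, 16 of 43 hosts, 12 of 16 ribosomal protein hosts and 3 of 20 other protein-coding hosts had a summit, and in 4 of 5 snoRNAs it was also at a host TSS. Fewer hosts are counted by construction. Taking 1 replicate's strongest peaks in place of the IDR list gave 13 to 14 snoRNAs, 39 to 43 hosts, 21 to 25 ribosomal protein, 16 to 17 other protein-coding and 1 to 2 noncoding hosts, 0 to 1 distant snoRNAs, and 7 to 10 snoRNAs whose summit was at a host TSS; the lone distant snoRNA, in tn, was lost without replicate 1. TSSs of transcripts that contain the snoRNA, a protein-coding host taken first, and the canonical TSS alone left every count within 1.5 times; the last was chosen after seeing the data. Read depth is unknown, so what it limits cannot be given. No paired analysis was possible because the 2 replicates form 1 group.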
